A study of Homo sapiens with 6 samples.

Results

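The subject here is the gap between naive and aglaiacized HEK293T-REx cells when both were given RocA, read against the gap between the same lines in the solvent DMSO. The members are 31237 transcript models of 38543 that held a count, namely those whose counts averaged at least 20 over the 6 ribosome profiling libraries. A transcript model is a set of deposited rows whose counts were identical in all 6 libraries, and several models can stem from 1 gene. The groups were naive cells in DMSO (n = 2 libraries), aglaiacized cells in DMSO (n = 2), naive cells under RocA (n = 1) and aglaiacized cells under RocA (n = 1). HEK293T-REx is a human embryonic kidney line that carries the tetracycline repressor, and both lines share that parent. The labels give no dose, no time and no account of how the aglaiacized line was made or whether it is a single clone. From the study's title and what is known of it, the aglaiacized cells carry an eIF4A1 with the residue found in Aglaia plants, which withstand their own compound. The identifiers are not paired with gene names in the deposited files, so neither the eIF4A genes nor markers of the kidney line could be used to check the labels.

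RocA (rocaglamide A) is a product of Aglaia that holds eIF4A, the helicase that opens mRNA leaders during initiation, onto polypurine stretches of RNA. The clamped protein stands in the way of scanning ribosomes and keeps eIF4A from other messages. Messages therefore differ in how far their translation falls, and an eIF4A that binds the compound poorly is known to lessen the effect. Ribosome profiling counts the RNA pieces that ribosomes protect from nuclease. A count follows the number of ribosomes on a coding region, and hence both the amount of the mRNA and its translation. Each value below is relative to the rest of its library, so a loss shared by all messages does not show.

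The RocA libraries were close in total, with 8193081 counts over the tested models in naive cells and 8296463 in aglaiacized cells. The DMSO libraries held 18388365 to 28338459. After the TMM scaling used for levels and gaps, the effective sizes were 6184081 in naive and 7301508 in aglaiacized RocA. Levels are given in CPM, counts scaled to a common library total, with TMM factors that centre the bulk of the models. The gap is the log2 ratio of aglaiacized over naive cells, so that a positive gap means more footprints in aglaiacized cells. Each RocA group had 1 library, so its own spread was not measured and was assumed to equal that of the DMSO pairs. Whether the DMSO replicates were separate cultures is not stated, so the p-values rest on a spread between libraries that may be technical.

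Under RocA, 8676 of 31237 models (27.8%) differed between the lines at an edgeR adjusted p under 0.05. Aglaiacized cells were higher in 3912 models (12.5%), where the median gap was 0.97, and lower in 4764 (15.3%), where it was -0.88. In DMSO 11121 models (35.6%) were called, with 5936 above 0 (19%) and 5185 below (16.6%), but their median gaps were 0.49 and -0.51. The order of these 2 counts was not stable: RocA had more calls than DMSO with DESeq2 (4666 against 3586) and with libraries thinned to 1 depth (8339 against 7212). The same held without naive DMSO replicate 1 (7206 against 5456), without naive DMSO replicate 2 (7211 against 5235) and without aglaiacized DMSO replicate 2 (10306 against 8815). Large gaps were mostly found under RocA. A called gap of at least 2-fold was found for 3670 models under RocA (11.7%) and for 744 in DMSO (2.38%). At 4-fold, 261 models were higher and 249 lower under RocA, against 4 and 85 in DMSO. Of these RocA models, 33 of the higher and 5 of the lower ones had a RocA library with 0 counts. With 3 counts in place of 0, the gap was under 4-fold in 30 and 2 of them. The 5th and 95th percentiles of the gap were -1.20 and 1.34 under RocA, and -0.67 and 0.63 in DMSO. The split of the calls depended on scaling and filter. Higher models made up 45.1% of calls with TMM factors, 40.4% with RLE factors, 53.4% with upper-quartile factors and 68.8% with unscaled totals, and 51.5% with no filter on low counts. In DMSO they made up 53.4% of calls, and 40.8% with unscaled totals. The median gap of all models under RocA was 0.01 with TMM and 0.23 with unscaled totals, so the sizes of gaps near that shift depend on the scaling chosen. That median was -0.03 with RLE factors, -0.03 with DESeq2 and -0.007 after thinning.

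Single libraries gave the same order of widths without any test. Among the 20211 models that averaged at least 100 counts, the SD of log2(CPM + 1) differences was 0.606 between the RocA libraries. It was 0.332, 0.332, 0.399 and 0.402 for the 4 pairings of an aglaiacized with a naive DMSO library. The DMSO replicates of 1 line gave SDs of 0.140 (naive) and 0.179 (aglaiacized). The RocA gap was therefore 1.51 to 1.83 times as wide as the DMSO gaps, and 1.63 times when all libraries were thinned to the depth of the smallest. Differences of at least 2-fold made up 9.30% of these models under RocA and 0.717% to 1.35% in the DMSO pairings. In 11057 of the 20211 models (54.7%) the RocA gap was larger in size than the gap in all 4 DMSO pairings. The 4 pairings reuse the same DMSO libraries, and this share was not repeated with thinned counts, so it has no value to be read against. By the SDs the lines stood further apart under RocA than in DMSO, with no second RocA library in either line to measure that width again.

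**Figure D1:**
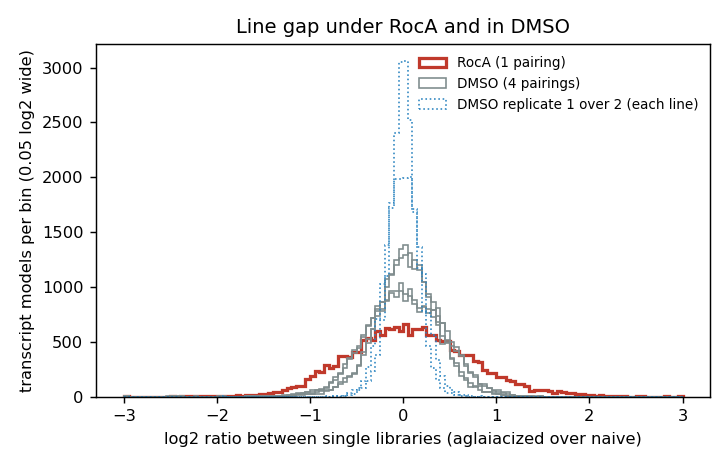
Number of transcript models (vertical axis) by log2 ratio between single libraries (horizontal axis), for the 20211 models that averaged at least 100 counts; red is aglaiacized over naive RocA, grey the 4 DMSO pairings of the lines, and dotted blue replicate 1 over 2 in each line. The red curve is the widest (SD 0.606 on the log2(CPM + 1) scale), the grey curves lie between, and the dotted curves are the narrowest; values beyond 3 in size are drawn in the end bins.

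The change of the gap with RocA, which is the cell line by RocA interaction, was called for 7992 models (25.6%) by the edgeR quasi-likelihood test. The gap moved toward aglaiacized cells in 3533 (11.3%) and toward naive cells in 4459 (14.3%). The split turned with scaling, to 4279 above and 3781 below with upper-quartile factors and 6629 above and 2472 below with unscaled totals. At 2-fold or more, 2036 interactions were called above 0 (6.52%) and 2006 below (6.42%). The gap under RocA and the gap in DMSO share no library. Across all 31237 models they had a Spearman correlation of 0.120 and a Pearson correlation of 0.189, and 52.6% of models had the same sign in both. Models are not independent replicates, some share reads, and these values are descriptions. The median size of the DMSO gap over all models was 0.26. Among those with a called DMSO gap of at least 2-fold the sign was the same under RocA in 452 of 537 lower and 146 of 207 higher models, and in 81 of the 85 that were at least 4-fold lower.

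The models that were higher in aglaiacized cells under RocA were mostly ones that fell in naive cells. For the 1843 models (5.9%) with a called gap of at least 2-fold, the median gap was 1.39 under RocA and 0.06 in DMSO. Their median change from DMSO to RocA was -2.01 in naive cells, with quartiles of -2.68 and -1.37. For aglaiacized cells that median was -0.59, with quartiles of -1.02 and -0.16. By the edgeR test, 1737 of them fell and 2 rose in naive cells, where 33.9% of all models fell. In aglaiacized cells 1011 fell, 66 rose and 766 did not pass the test, and of all models 24.3% fell and 24.5% rose. A total of 1010 fell in both lines and 34 changed in opposite directions. These responses share the RocA libraries with the gap and describe how it came about in numbers, without adding evidence for it. In 33 of the 1843 models a RocA library held 0 counts, and with those set at 3 counts the median gap was 1.38.

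The models that were lower in aglaiacized cells under RocA were mostly ones that rose in naive cells. For the 1827 models (5.85%) with a called gap of at least 2-fold, the median gap was -1.32 under RocA and -0.19 in DMSO. Their median change with RocA was 1.51 in naive cells, with quartiles of 0.88 and 2.03. In aglaiacized cells it was 0.44, with quartiles of -0.20 and 0.87. In naive cells 1517 rose and 29 fell, where 32.4% of all models rose. In aglaiacized cells 726 rose, 186 fell and 915 did not pass the test, and 718 rose in both lines. Of the 1827 models, 601 (32.9%) were called lower in aglaiacized cells in DMSO as well, where 16.6% of all models were. Among the 1843 higher ones 449 (24.4%) were called higher there, where 19% of all models were. The difference between these shares was not tested. For the 249 models at least 4-fold lower under RocA, the gap in DMSO had a median of -0.65. In DMSO 126 of them were called lower, 12 higher and 111 not at all. Their median change with RocA was 1.13 in naive and -0.12 in aglaiacized cells.

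**Figure D2:**
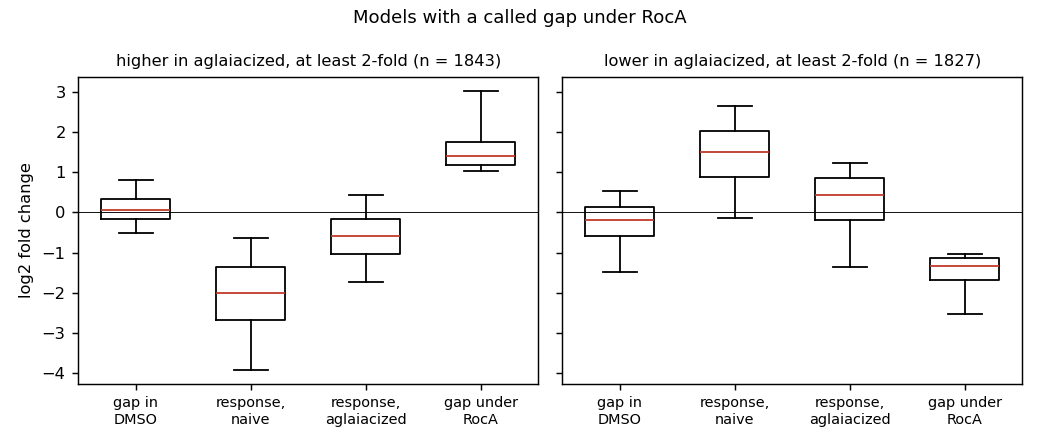
Log2 fold changes (vertical axis) for the models with a called gap of at least 2-fold under RocA, 1843 higher and 1827 lower in aglaiacized cells; boxes span the quartiles, red lines are medians and whiskers reach the 5th and 95th percentiles. In both sets the median naive response (-2.01 and 1.51) is larger in size than the aglaiacized one (-0.59 and 0.44). The median gap in DMSO is 0.06 in the higher and -0.19 in the lower set.

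Part of the wide gaps present in DMSO were called again under RocA in the same direction. In DMSO 537 models (1.72%) were lower by at least 2-fold, with a median gap of -1.24. Under RocA their median gap was -0.95, 228 of them (42.5%) were called lower again, where 15.3% of all models were called lower, 8 were called higher and 301 did not pass the test. Among the 85 that were lower by at least 4-fold in DMSO, 59 were called lower under RocA, and the median gap went from -2.60 to -2.29. The 207 models (0.663%) that were higher by at least 2-fold in DMSO had a median gap of 1.11 there and 0.51 under RocA. Of these, 47 (22.7%) were called higher again, where 12.5% of all models were called higher, and 13 lower. The shares of the lower and higher sets were not tested against each other, and with unscaled totals their median gaps under RocA were alike in size, at -0.68 and 0.68. Their median gap under RocA was 0.28 when the DMSO gap was taken without naive DMSO replicate 1 and 0.31 without aglaiacized DMSO replicate 1. Models picked for a large gap in DMSO have a gap there that is inflated by the choice. These models were also thinly covered, with median mean counts of 60.3 for the lower and 63.3 for the higher set.

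A smaller set changed sides. In DMSO 856 models were higher in aglaiacized cells, by a median of 0.42, and under RocA they were lower, by a median gap of -0.69. The reverse held for 604 models, with median gaps of -0.39 in DMSO and 0.97 under RocA. Most of these baseline gaps were small, and in 9 and 6 models both opposite gaps reached 2-fold. These sets are 14.4% of the 5936 models higher in DMSO and 11.6% of the 5185 lower ones, while 12.5% of all models were called higher and 15.3% lower under RocA. The share that changed sides was thus near the share of all models called in that direction.

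**Figure D3:**
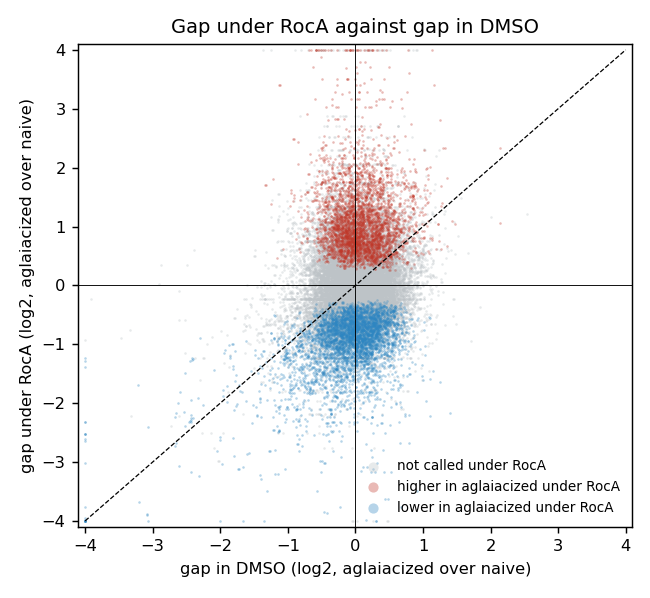
Fitted gap under RocA (vertical axis) against fitted gap in DMSO (horizontal axis), both log2 of aglaiacized over naive, 1 point per transcript model, with values beyond 4 drawn at 4; red and blue mark models called higher or lower in aglaiacized cells under RocA. The cloud is taller than wide, and of the 85 models at least 4-fold lower in DMSO, at the left, 59 were called lower under RocA too.

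Among models with at least 10 counts in every library that were called for both the gap under RocA and its change, 2257 were higher and 2890 lower in aglaiacized cells. The widest gap toward aglaiacized cells was that of uc002ghm.3, with a listed coding length of 565. It stood at 28.0 and 29.4 CPM in naive DMSO (580 and 623 counts) and at 44.1 and 48.4 CPM in aglaiacized DMSO (1018 and 1487 counts). Under RocA it had 1.62 CPM in naive cells (10 counts) and 13.1 CPM in aglaiacized cells (96 counts). Both lines were thus lower under RocA than in either of their DMSO libraries, and the aglaiacized library stayed well above the naive one. The RocA levels differed 8.13-fold, with a 95% exact binomial interval of 4.24 to 17.5 that covers counting error only. The gap was 3.02 under RocA (SE 0.39, edgeR adjusted p = 5.18e-10) and 0.69 in DMSO (SE 0.10, edgeR adjusted p = 2.4e-08). The change of the gap was 2.33 (SE 0.42, edgeR adjusted p = 6.56e-06).

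The next such model, uc010nfx.2 (length 567), was low in naive RocA and similar in the other libraries. It had 9.73 and 7.36 CPM in naive DMSO, 9.14 and 7.33 CPM in aglaiacized DMSO and 9.998 CPM in aglaiacized RocA (73 counts). Naive RocA had 1.94 CPM (12 counts). The 4 DMSO libraries overlapped between the lines, and the naive RocA library lay below all others. The RocA levels differed 5.15-fold (95% exact binomial interval 2.78 to 10.4, counting error only). The gap was 2.36 under RocA (SE 0.41, edgeR adjusted p = 3.03e-06) and -0.06 in DMSO (SE 0.15, edgeR adjusted p = 0.768). In aglaiacized cells its response to RocA of 0.29 did not pass the test (SE 0.23, edgeR adjusted p = 0.291).

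In the other direction, uc011kip.1 (length 89) had a high level in naive RocA alone. It stood at 2.31 and 2.27 CPM in naive DMSO, 1.95 and 3.32 CPM in aglaiacized DMSO and 2.47 CPM in aglaiacized RocA (18 counts). In naive RocA it reached 18.6 CPM (115 counts). The 5 other libraries overlapped, and the naive RocA library lay above them all. The RocA levels differed 7.54-fold (95% exact binomial interval 4.57 to 13.2, counting error only). The gap was -2.91 under RocA (SE 0.36, edgeR adjusted p = 1.03e-10) and 0.24 in DMSO (SE 0.23, edgeR adjusted p = 0.427). The change of the gap was -3.15 (SE 0.43, edgeR adjusted p = 5.9e-09).

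A second short model, uc031qsd.1 (length 79), rose in both lines, and by more in naive cells. Its DMSO counts were 53 and 37 in naive and 27 and 40 in aglaiacized cells. It met the mean count of at least 50 only through its count in naive RocA, so its place among the printed models depends on that library. It had 2.55 and 1.75 CPM in naive DMSO, 1.17 and 1.30 CPM in aglaiacized DMSO, 19.2 CPM in naive RocA (119 counts) and 3.29 CPM in aglaiacized RocA (24 counts). In DMSO the lines did not overlap, and the lower level was that of aglaiacized cells. The RocA levels differed 5.85-fold (95% exact binomial interval 3.75 to 9.5, counting error only). The gap was -2.55 under RocA (SE 0.33, edgeR adjusted p = 1.06e-09) and -0.78 in DMSO (SE 0.26, edgeR adjusted p = 0.0131). The response to RocA was 3.16 in naive cells (SE 0.25, edgeR adjusted p = 4e-21) and 1.40 in aglaiacized cells (SE 0.40, edgeR adjusted p = 0.0022).

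**Figure D4:**
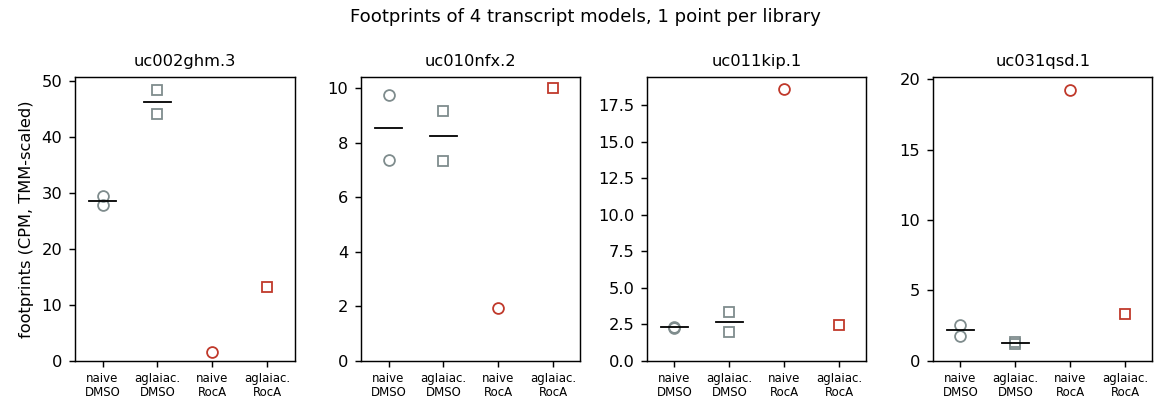
Footprint level in CPM (vertical axis, a scale of its own in each panel) of uc002ghm.3, uc010nfx.2, uc011kip.1 and uc031qsd.1 in naive and aglaiacized cells, 1 point per library, with grey for DMSO, red for RocA and a line at the mean of 2 DMSO libraries. In the first 2 panels naive RocA is the lowest library, and in the last 2 it is the highest.

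The first 10 models in each direction, taken so that no 2 had similar counts in all libraries, showed the same arrangement. The 10 higher ones had gaps of 2.06 to 3.02 under RocA and of -0.65 to 0.86 in DMSO. All 10 fell in naive cells, with log2 fold changes of -4.14 to -1.51, and 6 fell in aglaiacized cells. They held 10 to 22 counts in naive RocA and 53 to 127 in aglaiacized RocA. The 10 lower ones had gaps of -2.91 to -2.33 under RocA and of -1.53 to 0.51 in DMSO. All 10 rose in naive cells, by 1.88 to 3.88, while in aglaiacized cells 6 rose and 1 fell. They held 115 to 1207 counts in naive RocA and 18 to 283 in aglaiacized RocA. Their listed coding lengths had a median of 124, against 566 for the 10 higher models. The contrast was smaller in the full sets. Over all models with a called gap of at least 2-fold under RocA, the median length was 309 for lower and 513 for higher ones. At 4-fold or more it was 411 and 454. The direction of the naive response in the first 10 models of each direction is tied to the rule that picked them.

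Models with a longer listed coding length tended weakly toward a higher gap under RocA, and toward a lower gap in DMSO. Across models the Spearman correlation of gap and length was 0.150 under RocA and -0.109 in DMSO, given as a description. The unit of the length is not stated, and it is taken as codons. In the shortest of 5 groups of about equal size (6264 models, lengths 16 to 217) the median gap was -0.19, with 508 models called higher in aglaiacized cells (8.11%) and 1481 lower (23.6%). In the longest group (6243 models, lengths 773 to 14498) it was 0.16, with 1101 called higher (17.6%) and 690 lower (11.1%). The shares over all models were 12.5% higher and 15.3% lower. In DMSO the medians ran the other way, 0.06 in the shortest and -0.05 in the longest group. With unscaled totals the median of the shortest group under RocA was 0.03, not below 0, and that of the longest was 0.39. The difference between the groups does not depend on scaling.

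The shortest group stood 0.35 below the longest under RocA, a difference of -0.35 on the log2 scale. In the 4 DMSO pairings of the lines the difference was 0.09, 0.08, 0.15 and 0.13, and the DMSO replicates gave -0.02 (naive) and -0.05 (aglaiacized). The RocA value thus lay outside the range of the DMSO pairings, with 1 RocA pairing and no test. Within 5 groups of DMSO abundance it was -0.05 in the lowest and -0.43 to -0.29 in the others. The lines' own responses give the parts of this difference. In naive cells the median response was 0.32 in the shortest and -0.40 in the longest group, and in aglaiacized cells it was 0.10 and -0.11. The change of the gap was called above 0 in 430 (6.86%) and below 0 in 1553 (24.8%) of the shortest models. In the longest it was called above 0 in 1077 (17.3%) and below 0 in 511 (8.19%), and over all models in 11.3% and 14.3%. With unscaled totals these counts were 838 above and 978 below in the shortest, and 1937 above and 248 below in the longest group.

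The counts were most uneven among the shortest models with TMM factors, and among long models with unscaled totals. Of 897 models with a length of at most 100, 49 were called higher and 277 (30.9%) lower in aglaiacized cells under RocA, with a median gap of -0.31 and a median gap in DMSO of 0.10. Of 538 models with a length of at least 2000, 118 (21.9%) were called higher and 83 (15.4%) lower, with medians of 0.16 under RocA and -0.21 in DMSO.

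**Figure D5:**
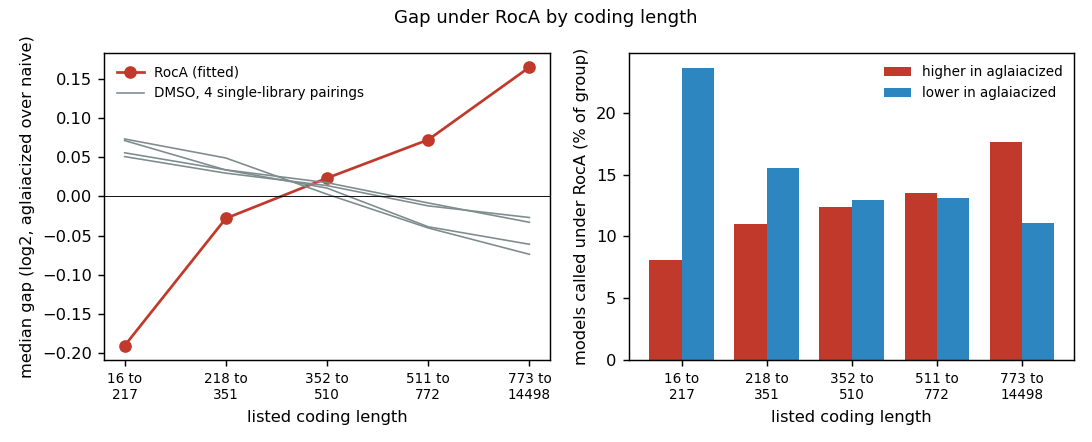
Left, median gap (log2, aglaiacized over naive) in 5 groups by listed coding length, red for the fitted gap under RocA and grey for the 4 DMSO pairings; right, share of each length group called higher (red) or lower (blue) in aglaiacized cells under RocA. The red line climbs from -0.19 to 0.16 while the grey lines decline, and the blue bars shrink from 23.6% to 11.1%.

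Abundance in DMSO set how many gaps were called, but wide gaps under RocA were found at every abundance. In the lowest of 5 groups by mean DMSO level (0.681 to 3.08 CPM) the median model held 11 counts in naive and 12 in aglaiacized RocA, and 749 models (12.0%) were called. In the highest group (27.4 to 3330 CPM) the medians were 385.5 and 449.5 counts, and 3283 (52.5%) were called. Called gaps of at least 2-fold made up 11.6%, 12.4%, 12.8%, 12.5% and 9.49% of the groups from lowest to highest. In DMSO the same shares were 5.49%, 2.91%, 1.58%, 1.20% and 0.72%. The share of called wide gaps thus declined steadily with abundance in DMSO. Under RocA it was 9.49% in the most abundant group and 11.6% to 12.8% in the others. Few counts limit the calls in the lowest group. The median size of the RocA gap, called or not, declined from lowest to highest group, at 0.63, 0.52, 0.46, 0.42 and 0.41. The median size of the RocA gap was 1.67 to 1.83 times that of the mean DMSO pairing in the 5 groups. These sizes were taken at full depth, where the RocA libraries held fewer counts than the DMSO ones. They therefore include counting noise, most of all in the lowest group, and its share was not tested. In the lowest group 110 models were called higher and 639 lower. The filter on the mean count uses all 6 libraries, so the models lowest in DMSO passed it only through high RocA counts. The split and the share of wide gaps in this group are thus tied in part to the filter. At the counts of this group a fall can reach 0, and the depth of a RocA library then cannot show its size.

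The 100 models most abundant in DMSO took 19.9% of tested counts in naive RocA and 19.1% in aglaiacized RocA, against 13.7% to 15.4% in the DMSO libraries. Of the 100 top models of each RocA library 76 were shared between the lines, and in the DMSO pairings 87 to 90 were. In DMSO 55 of the 100 were called higher in aglaiacized cells and 5 lower, where 19% and 16.6% of all models were. Under RocA 20 were called higher and 39 lower, with a median gap of -0.06, where 12.5% and 15.3% of all models were. In the whole most abundant group, 1824 of 6248 models were called higher and 1459 lower under RocA. The RocA split turned to 40 higher and 27 lower with unscaled totals, and the median gap was above 0 with these (0.16) and with upper-quartile factors (0.01). These models had a median response of 0.82 in naive and 0.61 in aglaiacized cells.

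A called gap of at least 2-fold under RocA was found for 5 of these 100 models, against 11.7% of all models and 9.49% of the most abundant group. These 5 are described after their values were seen. The widest, of length 467, had 828 and 771 CPM in naive DMSO and 1342 and 1410 CPM in aglaiacized DMSO. Under RocA it had 258 CPM in naive cells (1598 counts) and 827 CPM in aglaiacized cells (6037 counts), so that aglaiacized RocA lay at the level of naive DMSO. Its gap was 1.68 under RocA (SE 0.10, edgeR adjusted p = 1.42e-25) and 0.78 in DMSO (SE 0.07, edgeR adjusted p = 5.85e-17). A change of 0.89 in the gap was called for it (SE 0.12, edgeR adjusted p = 1.1e-08). A further 3 models had gaps of 1.44 to 1.52 under RocA and 0.81 to 0.83 in DMSO. A pair of them had the same length of 632 and similar counts, which may be shared reads. The fifth, of length 397, was lower in aglaiacized cells, with 1759 CPM in naive RocA and 864 CPM in aglaiacized RocA. Its 4 DMSO libraries lay between 855 and 1062 CPM, so that naive RocA was the one library that stood apart. The gap of this model was -1.03 under RocA (SE 0.10, edgeR adjusted p = 4.65e-15).

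More models lacked footprints in naive RocA, where 85 tested models held 0 counts, than in aglaiacized RocA, where 14 did. A total of 3 models were in both sets. All 85 had at least 10 counts in each DMSO library, which the filter on the mean count largely requires of models with few RocA counts. In aglaiacized RocA these 85 held a median of 5 counts and at most 17. A count of 0 was taken to allow at most 3 counts in a library (0.485 CPM in naive RocA). Against that limit, with the aglaiacized count taken as exact, 16 of the 85 were at least 2-fold higher in aglaiacized cells. Only 7 of the 85 held at least 10 counts there, and the counting error of those counts was left out. The largest bound was at least 4.80-fold higher, with 71 to 133 counts in the DMSO libraries. Of the 14 models at 0 in aglaiacized RocA, 3 were at least 2-fold lower there by the same limit (0.411 CPM). The largest bound was at least 11.8-fold lower, for a model of length 215 with 30 counts in naive RocA and 2 to 53 counts in the DMSO libraries. Those few counts do not show how large most of these gaps were.

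Neighbouring rows of the files often shared a called gap. The 1843 models that were at least 2-fold higher in aglaiacized cells formed 930 runs of adjacent tested models, and 511 of them stood alone. The longest run held 20 models with lengths of 153 to 734 and gaps of 1.03 to 1.87 under RocA and 0.28 to 0.72 in DMSO. The 1827 lower models formed 1034 runs, the longest with 17 models, gaps of -1.31 to -1.12 under RocA and -1.06 to -0.96 in DMSO. Such runs may be isoforms that count the same reads, so the number of separate changes is below the number of models. When neighbours with nearly proportional counts were merged to 18370 models, 4821 (26.2%) were called under RocA, 2300 of them at 2-fold.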

How the data were processed

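The authors deposited raw counts, 1 whole number per transcript row and library, without a header or normalization, beside another deposited column, a length whose unit is not stated. The submitters' processing notes list hg19, CASAVA 1.8, Bowtie2 2.1.0 and TopHat2 2.0.9. How reads were counted, and what became of reads with several matches, is not given in the sources used here. Of 82960 rows, 19269 had no length and held 0 counts. Rows with identical counts in all 6 libraries were merged, keeping the longest length. RefSeq's gene table (GRCh38.p14) held 1 of the identifiers, which was not tested, so no gene is named and no sequence is shown.

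edgeR 4.0.16 (R 4.3.3; quasi-likelihood test, TMM factors) was fitted to all 6 libraries in 4 groups, with 2 residual degrees of freedom, all from DMSO pairs. Tests were two-sided, adjusted by Benjamini-Hochberg over 31237 models with a threshold of 0.05. SE is the size of the log2 fold change over the root of F. DMSO replicates differed by more than sampling noise in both lines: chi-square over its degrees of freedom was 1.95 (naive) and 4.81 (aglaiacized). On simulated data with changes in 1 RocA library, the gap was called for 95 of 100 models changed 4-fold and 58 of 100 changed 2-fold, and for 7 unchanged ones. The changed models had a mean count of at least 50. All libraries were drawn with 1 common dispersion (0.0041), so RocA libraries were assumed to vary like the others. The simulation therefore cannot give the error rate of the real RocA gap.

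The members, lists and groups were chosen with earlier results of these data known. Models printed by identifier were the 2 widest gaps per direction called for gap and interaction, with the same sign, at least 10 counts in each library and a mean of at least 50, skipping models within 20% of a taken one in every library. DESeq2 1.42.0, other scalings, filters, thinning, merging and left-out libraries were tried. Single-library ratios for medians added 0.5 counts, and those for SDs added 1 CPM.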

Additional observations from a re-analysis of the deposited data

Results flagged for a closer look

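The gap between the lines differed between RocA and DMSO in 7992 models by the edgeR test of the interaction. The models printed by identifier are among them because a called interaction was part of the rule that picked them. They were taken for the widest gaps under RocA, so their gaps and changes may be inflated by the choice. The change of the gap, RocA minus DMSO, was 2.33 for uc002ghm.3 and 2.42 for uc010nfx.2 (edgeR adjusted p = 6.56e-06 and 8.71e-06). It was -3.15 for uc011kip.1 and -1.76 for uc031qsd.1 (edgeR adjusted p = 5.9e-09 and 0.00117). Each rests on 1 RocA library per line, and the variation between RocA libraries was not tested.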

How the results depend on the processing

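The alternatives in scaling, filter, depth, merging, tool and left-out libraries kept the direction of every result listed here, apart from these exceptions. The splits of calls turned with scaling, and that under RocA also with no filter. The order of the RocA and DMSO counts turned with DESeq2, thinning and 3 left-out libraries. The medians of the shortest length group and of the 100 abundant models turned with scaling. So did the lengths at which the counts were most uneven. The median RocA gap of all models turned with RLE factors, DESeq2, thinning and a mean count of at least 100. The number of models called under RocA was 4666 with DESeq2, which gave no adjusted p for 7268 models, and 4821 with neighbours merged; with 1 DMSO library left out it was 7206 to 10306. For the gap in DMSO it was 3586 with DESeq2, 7212 after thinning, 6180 with neighbours merged and 5235 to 14081 with a library left out, the 2 lowest without naive replicate 2 (5235) and replicate 1 (5456). For the interaction it was 3941, 4446 with neighbours merged and 5549 to 10267. Merging leaves fewer models to test, and thinning fewer counts; for DESeq2 the cause was not tested. The replicate block gave 8391 calls under RocA and 7651 for the interaction, of which 8376 and 7633 were also called without the block. Deviations of DMSO libraries with the same number correlated at -0.05 across models, so no shift shared by number was seen. That value cannot tell whether such libraries were handled together, and the RocA libraries carry no number. The width of the RocA gap over the DMSO gaps ran from 1.51 to 1.83 and the length difference from -0.39 to -0.32, the latter without a filter; with a library left out it stayed at -0.35. The median RocA gap of models at least 2-fold lower in DMSO was -0.87 with upper-quartile factors, -0.68 with unscaled totals, -1.05 at a mean count of at least 100 and -0.99 to -0.85 with a library left out. For those higher in DMSO it was 0.68 with unscaled totals, 0.36 after thinning, 0.38 with neighbours merged and 0.28 to 0.48 with a library left out. In the most abundant group the median size of the fitted RocA gap was 1.89 times that in DMSO, and 1.59 to 2.23 times with a library left out. The gaps of the models printed by identifier were called in all 13 or 14 alternatives that gave a value, with adjusted p up to 0.00122, and their interactions in all 12 to 14, up to 0.0284; DESeq2 gave no adjusted p for the interactions of uc011kip.1 and uc031qsd.1. Only the DMSO pairs measure spread, and counts near 10 in a RocA library limit the widest gaps.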
